A study of Homo sapiens with 10 samples.

Results

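The genes described are 10 members of the insulin-like growth factor (IGF) system: the ligand IGF2, the receptors IGF1R, INSR and IGF2R, and the binding proteins IGFBP1, IGFBP2, IGFBP3, IGFBP4, IGFBP6 and IGFBP7. They were taken by gene symbol, and all 10 were found among the 19215 symbols counted and passed the filter on low counts. The list was drawn up when it was already known that IGFBP7 was higher with the decoy in HepG2. That value is therefore given as a description with no p, and calls of IGFBP7 that rest on it are not read as tests. The genes and the further lists were all chosen with earlier results of these data known, and the other p-values carry that limit.

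IGF1 and IGF2 are growth factors that signal through the tyrosine kinase receptors IGF1R and, in part, INSR, whose main ligand is insulin. IGF2R, the cation-independent mannose-6-phosphate receptor, has no kinase and carries IGF2 to lysosomes. IGF binding proteins hold IGFs in the circulation and around cells, and most are secreted proteins that limit or prolong access of the ligands to their receptors. The liver is the main source of circulating IGF1 and of IGFBP1, whose gene is repressed by insulin. IGF2 is a fetal growth factor that many liver tumours express. IGFBP7 binds IGFs weakly and is often grouped apart from the others.

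Poly(A) RNA was sequenced from 2 human liver tumour lines. HepG2 has hepatocyte features, and SK-Hep1 has a reported endothelial origin. Cells were exposed for 48 h to lentiviral particles, at a multiplicity of infection of 5 and with polybrene at 10 µg/mL. They were selected for 2 weeks in 1 µg/mL puromycin in medium with 10% serum, and colonies were pooled. The virus encoded a tough decoy (TuD), which is a structured RNA that sequesters a microRNA. It was directed at miR-17 (miR-17 TuD) or served as negative control (NC TuD). There were 3 HepG2 libraries in each arm and 2 SK-Hep1 libraries in each arm. All 4 groups carried a decoy vector and had been through puromycin, and each group is 1 stable line. The decoy and the history of a line therefore cannot be told apart. The labels do not say that replicates were separate cultures, so p-values measure only the spread between these libraries.

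The libraries held 12884225 to 15076431 gene counts, and 1 count was worth 0.0663 to 0.0776 CPM (gene counts scaled to a common library total). Hepatocyte markers summed to 56599 to 58856 CPM in HepG2 NC TuD and 49230 to 51647 CPM in HepG2 miR-17 TuD. They summed to 85.2 to 106.7 CPM in SK-Hep1 NC TuD and 74.2 to 79.9 CPM in SK-Hep1 miR-17 TuD. The 8 endothelial markers reached at most 1.18 CPM in sum in SK-Hep1, where PECAM1, KDR and ERG had no count in any library, so the reported origin was not visible in these markers. Mature microRNAs were not measured, so the decoy could only be followed through messenger RNAs. Among 13267 tested genes with a 3′ untranslated region (3′UTR), those with an 8mer or 7mer-m8 match to the seed were called higher in HepG2 in 15.1% of cases and those with no match in 9.26%. In SK-Hep1 these shares were 1.69% and 0.317%.

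The decoy is aimed at a family of microRNAs that share a seed, the stretch from nucleotide 2 to nucleotide 8 that pairs with targets. The mature sequences of miR-17-5p and of 3 relatives (RefSeq, GRCh38.p14) are shown with that seed in capitals. The letters sought in the IGF genes were derived from it, and other kinds of site were not searched.

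hsa-miR-17-5p: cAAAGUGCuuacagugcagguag

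hsa-miR-20a-5p: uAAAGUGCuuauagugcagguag

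hsa-miR-93-5p: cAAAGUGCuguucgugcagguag

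hsa-miR-106b-5p: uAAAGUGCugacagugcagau

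The capitals are the same in all 4 lines. The matching letters sought on the sense strand of each longest 3′UTR were GCACTTTA (8mer), GCACTTT (7mer-m8) and CACTTTA (7mer-A1). The 7mers are both contained in the 8mer, and each site was counted once by its longest form. No IGF gene on the list held an 8mer. IGF2R and INSR each held one 7mer-m8, so 2 of 10 genes had a site of the 2 stronger kinds, beside 24.9% of the 13267 genes searched. IGFBP7 and IGF1R each held one 7mer-A1, which brings the count to 4 of 10, beside 31.1% of genes. The windows around the 4 sites are shown because they hold the matches found, with the match in capitals and the strand of the gene.

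IGF2R 7mer-m8, chr6:160106677-160106705, plus strand: tttatgaggcaGCACTTTcatttttctcc

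INSR 7mer-m8, chr19:7112857-7112885, minus strand: agaacaggtcaGCACTTTtttttttccta

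IGFBP7 7mer-A1, chr4:57031201-57031229, minus strand: caatccactaaCACTTTAgttatattcac

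IGF1R 7mer-A1, chr15:98961429-98961457, plus strand: gatggtgcagtCACTTTActggaccaacc

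Positions are on GRCh38 (GENCODE 29) and all 4 sites lie in 3′UTR exon sequence, while the counts were made on hg19. The IGFBP7 site begins at base 99 of a 544-base 3′UTR, and the IGF2R site at base 1604 of 6420. Those of IGF1R and INSR begin at base 3998 of 7088 and base 4182 of 4801. IGFBP1, IGFBP2, IGFBP3, IGFBP4, IGFBP6 and IGF2 held none of the 3 matches in the 3′UTR searched. A match is a description of these letters and not evidence of a working site, and genes whose strongest match was a 7mer-A1 were called higher in HepG2 in 8.98% of cases, close to the 9.26% of genes with no match.

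In HepG2, the ligand IGF2 was lower with the miR-17 decoy, IGFBP1 and IGF2R were slightly higher, and IGFBP7 was about 3 times as high. The signalling receptors IGF1R and INSR had nearly equal levels in the 2 arms. Of the 10 genes, 4 were called at an adjusted p below 0.05 by edgeR's quasi-likelihood test, 3 higher and 1 lower, where 19.3% of the 13349 genes tested were called (10.7% higher and 8.58% lower). Scaled by total counts alone, the calls over all genes split into 1822 higher and 764 lower in place of 1425 and 1146, and 4 of the 10 were called again. Nothing is read from this count, since IGFBP7 was known when the list was made. The median log2 change of the 10 was 0.04, beside 0 over all tested genes, and the median size of change was 0.12 beside 0.107. In bulk RNA, fewer cells of a type and less RNA per cell cannot be told apart.

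IGF2 stood at 1863, 1836 and 2054 CPM in the HepG2 NC TuD libraries and at 1383, 1534 and 1361 CPM in the miR-17 TuD libraries. All 3 control libraries lay above all 3 decoy libraries. The log2 change was -0.43 ± 0.04 (SE, n = 3 per arm; edgeR adjusted p = 7.061e-12), and 11.5% of tested genes changed at least as much in either direction. The call held in every alternative run in HepG2, with log2 changes from -0.48 to -0.38. Hepatocyte markers mostly moved the same way. In HepG2, 7 of 10 were called lower and 1 higher, beside background shares of 8.58% and 10.7%. The albumin gene ALB changed by -0.51 on the log2 scale (edgeR adjusted p = 7.792e-09). The part of this shift in the IGF2 value was not tested. IGF2 shares 6.62% of its exon bases with the read-through gene INS-IGF2, which had 0 or 1 counts per library. It shares 4.77% with the antisense gene IGF2-AS, which the unstranded libraries could not separate from it. The noncoding gene AC132217.1 also overlaps exons of IGF2. The part of these genes in the IGF2 value was not tested.

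Among the receptors in HepG2, IGF2R stood at 652, 668 and 674 CPM with the control decoy and at 724, 735 and 707 CPM with the miR-17 decoy. The arms did not overlap, but the change was small, at 0.12 ± 0.03 on the log2 scale (n = 3 per arm; edgeR adjusted p = 0.006782), and 46% of tested genes changed by as much. This call was lost in the fit with a replicate block (edgeR adjusted p = 0.0524) and without NC TuD replicate 1 (edgeR adjusted p = 0.0525). IGF1R, the main receptor for both IGFs, had 122 to 124 CPM with the control decoy and 120 to 126 CPM with the miR-17 decoy, a log2 change of 0.00 ± 0.05 (edgeR adjusted p = 0.9985). INSR, the insulin receptor, had 59.97 to 68.3 CPM and 62.8 to 67.0 CPM, a change of 0.00 ± 0.06. The 95% interval of the change ran from -0.09 to 0.09 for IGF1R and from -0.11 to 0.11 for INSR. IGF2R and INSR both carry a 7mer-m8, and whether their changes in HepG2 differed from each other was not tested.

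IGFBP7, a secreted protein that also acts on vessels and cell growth, had 53, 45 and 60 counts in the HepG2 NC TuD libraries and 197, 168 and 135 counts in the miR-17 TuD libraries. As CPM, these are 3.87, 3.58 and 4.37 CPM against 13.8, 11.2 and 10.2 CPM, and the lowest decoy library lay above the highest control library. The log2 change was 1.58 ± 0.14 (n = 3 per arm), or 2.98-fold, and 2.43% of tested genes changed at least as much. Despite this fold, IGFBP7 remained a minor transcript in HepG2. Its reads can overlap POLR2B, a subunit gene of RNA polymerase II on the other strand, over 270 bases, which is 14.9% of its exon length. POLR2B had 178.95 to 188 CPM in the HepG2 NC TuD libraries and 163 to 183 CPM in the miR-17 TuD libraries, a log2 change of -0.09 ± 0.04 (edgeR adjusted p = 0.166). The antisense gene IGFBP7-AS1 also overlaps exons of IGFBP7. It was not among the counted symbols, and the unstranded libraries could not separate it from IGFBP7. The part of either gene in the IGFBP7 value was not tested.

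IGFBP1, the insulin-repressed binding protein of hepatocytes, stood at 239.6, 239.6 and 259 CPM in HepG2 NC TuD and at 275, 286 and 265 CPM in miR-17 TuD. The arms did not overlap, and the log2 change was 0.16 ± 0.04 (n = 3 per arm; edgeR adjusted p = 0.003329). On the deposited log2 matrix this call was lost (limma adjusted p = 0.128). IGFBP6, which binds IGF2 with preference, had 6.06, 6.28 and 6.12 CPM with the control decoy and 5.53, 5.69 and 4.55 CPM with the miR-17 decoy. These arms did not overlap either, but the change of -0.22 ± 0.13 did not pass the test (edgeR adjusted p = 0.2807). IGFBP2, IGFBP3 and IGFBP4 had overlapping arms, with log2 changes of 0.12 ± 0.12, 0.07 ± 0.21 and -0.06 ± 0.05. IGFBP4, which is cleaved by the protease PAPPA, ranged from 98.7 to 116 CPM over the 6 HepG2 libraries, and without miR-17 TuD replicate 2 its change was -0.14 and passed (edgeR adjusted p = 0.0478).

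**Figure D1:**
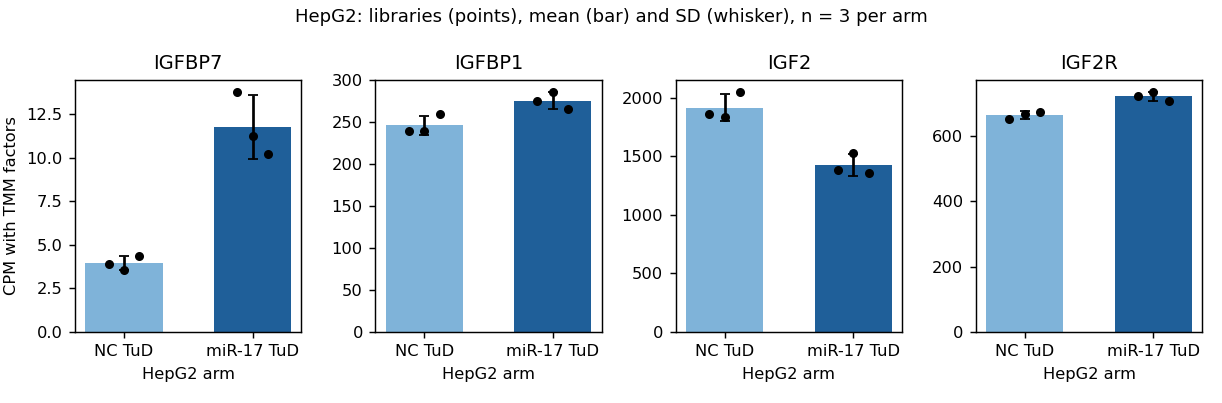
CPM with TMM factors of IGFBP7, IGFBP1, IGF2 and IGF2R in the HepG2 arms; points are libraries, bars means and whiskers SD (n = 3 per arm), each panel with its own axis from 0. The miR-17 TuD libraries lie above the NC TuD libraries for IGFBP7, IGFBP1 and IGF2R and below them for IGF2, and the gap is 2.98-fold for IGFBP7 and small for the others.

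In SK-Hep1, none of the 10 genes was called by edgeR, where 0.869% of tested genes were called (0.667% higher and 0.202% lower). At an unadjusted p below 0.05 there were 2, IGFBP3 and IGF2R, and DESeq2 called 1, IGFBP3. IGFBP3, the main carrier of IGFs in serum, stood at 982 and 999 CPM with the control decoy and at 1117 and 1097 CPM with the miR-17 decoy, with no overlap. Its log2 change was 0.16 ± 0.04 (n = 2 per arm; edgeR adjusted p = 0.06463), and it passed with DESeq2-type scaling, with no low-count filter and with SK-Hep1 fitted alone (edgeR adjusted p = 0.0255, 0.0229 and 2.82e-05) as well as with DESeq2 (adjusted p = 0.00291). It did not pass in the main fit, with total-count scaling, with a replicate block or on the deposited log2 matrix. Leaving out any SK-Hep1 library leaves 1 library in an arm, so those fits add no call of IGFBP3. Their log2 changes ran from 0.15 to 0.17. Per kilobase of exon IGFBP3 had the highest level of the 10 genes in this line, at 376 ± 4.56 CPM per kb with the control decoy (SD, n = 2).

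IGF2R in SK-Hep1 had 89.1 and 93.3 CPM with the control decoy and 99.8 and 101.8 CPM with the miR-17 decoy. The arms did not overlap, and the change of 0.14 ± 0.05 did not pass (edgeR adjusted p = 0.2777). IGF2 had 116 and 130 counts against 87 and 101, again with no overlap, and a log2 change of -0.30 ± 0.15 (edgeR adjusted p = 0.6164). Of the 10 hepatocyte markers, 5 were called lower and 1 higher (FGB, 2.41 ± 0.61) in SK-Hep1, beside background shares of 0.202% and 0.667%, and 4 did not pass. These calls rest on few counts. FGB had 2 and 2 counts with the control decoy and 9 and 12 with the miR-17 decoy. AFP had 62 and 76 against 11 and 7, and AHSG 12 and 38 against 0 and 1. APOA1 had 8 and 19 against 0 and 0, and APOA2 9 and 24 against 2 and 0. TTR had no count in SK-Hep1 and could not be called. ALB, one of those called lower, had 59 and 113 counts in the SK-Hep1 NC TuD libraries and 0 and 4 in the miR-17 TuD libraries. At the ratio of IGF2 to ALB counts in HepG2, those ALB counts would go with 8.35, 16.0, 0 and 0.566 counts of IGF2, and the part of the markers' shift in the IGF2 value was not tested. IGFBP7 had 16 and 12 counts with the control decoy and 11 and 16 with the miR-17 decoy, so the arms overlapped, and its change of 0.04 ± 0.41 has a 95% interval from -0.77 to 0.84. The other 6 genes had changes between -0.07 (IGFBP6) and 0.07 (IGF1R). That of IGFBP2, 0.05 ± 0.39, rests on 10 to 23 counts per library and has a 95% interval from -0.71 to 0.81. The IGFBP6 arms did not overlap, but its change did not pass (edgeR adjusted p = 0.8601).

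**Figure D2:**
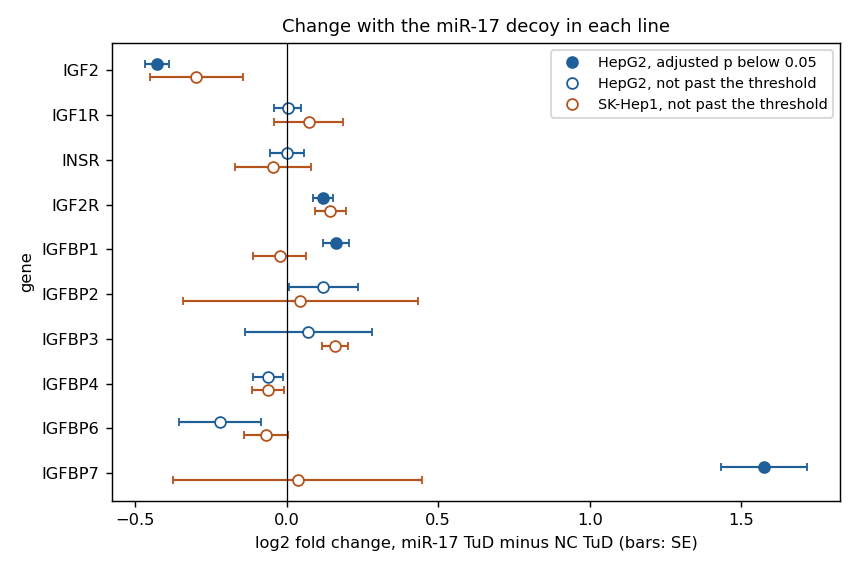
log2 fold change of each gene, miR-17 TuD minus NC TuD, in HepG2 (n = 3 per arm, blue) and SK-Hep1 (n = 2 per arm, orange), with SE bars; filled points are below an adjusted p of 0.05. IGFBP7 in HepG2 lies at 1.58 and all other points lie between -0.43 and 0.16. The fill of the IGFBP7 point in HepG2 is not read as a test, since the gene was listed with that value known.

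The responses of the 2 lines were compared by testing the SK-Hep1 change minus the HepG2 change. Of the 10 genes 1 was called, IGFBP7, where 3.75% of all genes tested were (1.24% higher and 2.51% lower). Its difference of -1.54 ± 0.44 on the log2 scale is given as a description with no p, since it rests on the HepG2 values known when IGFBP7 was listed. Nothing is read from the call itself. The call was lost in the fit with a replicate block, and on leaving out HepG2 miR-17 TuD replicate 1, HepG2 NC TuD replicate 1 or any single SK-Hep1 library. Over all libraries left out in turn the difference ran from -1.79 to -1.27. DESeq2 gave a difference of -1.54 and no adjusted p for this gene. The difference was -0.19 ± 0.10 for IGFBP1 (edgeR adjusted p = 0.3594), 0.13 ± 0.16 for IGF2 and 0.03 ± 0.06 for IGF2R, so a different response of these genes in the 2 lines was not detected. For IGF2 the 95% interval ran from -0.18 to 0.44, which leaves room for differences as large as the HepG2 change itself.

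Apart from IGFBP7, the 10 genes differed far more between the 2 lines than between the arms of either line. For IGFBP7 the log2 values were -2.04 ± 0.28 between the lines and 1.58 ± 0.14 between the HepG2 arms. With the control decoy, IGFBP3, IGFBP6 and IGFBP4 were higher in SK-Hep1, and IGF2, all 3 receptors, IGFBP1, IGFBP2 and IGFBP7 were lower. All 10 were called by edgeR, 3 higher and 7 lower, where 86.7% of tested genes were called (43.9% higher and 42.8% lower), so a call alone sets no gene apart here. The lines differ in donor, tissue of origin and culture history as well as cell type, and these cannot be told apart. The sizes were unequal: the median size of change was 3.25 on the log2 scale for the 10 genes and 0.856 for all tested genes.

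IGF2 was 229-fold lower in SK-Hep1, at 8.15 and 8.54 CPM in the NC TuD libraries against 1836 to 2054 CPM in HepG2 (-7.84 ± 0.08, edgeR adjusted p = 3.375e-50). Only 7.51% of tested genes differed by as much. IGF1R was 10.8-fold lower (-3.44 ± 0.07), IGF2R 7.29-fold lower (-2.87 ± 0.05) and INSR 5.86-fold lower (-2.55 ± 0.09). IGF1R differed the most and INSR the least. Per kilobase of exon, the 3 receptor transcripts summed to 64.5 ± 1.16 CPM per kb in HepG2 NC TuD (n = 3) and 8.63 ± 0.125 in SK-Hep1 NC TuD (n = 2). IGF2R made up 73.4 ± 0.232% and 75.2 ± 1.38% of that sum, IGF1R 15.6% and 10.8%, and INSR 11.0% and 14.0%. IGF2R led in both lines, while IGF1R came second in HepG2 and INSR in SK-Hep1.

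IGFBP3 was 449-fold higher in SK-Hep1, at 982 and 999 CPM against 2.04, 2.47 and 2.11 CPM in HepG2 NC TuD (8.81 ± 0.08, edgeR adjusted p = 1.733e-65), and 5.23% of tested genes differed by as much. IGFBP1 and IGFBP3 lie close together on chromosome 7 (GRCh38, chr7:45888357-45893668 on the plus strand and chr7:45912245-45921874 on the minus strand), and they differed between the lines in opposite directions. IGFBP6 was 9.71-fold higher (3.28 ± 0.09) and IGFBP4 2.24-fold higher (1.16 ± 0.05). IGFBP1, IGFBP2 and IGFBP7 were lower by 9.28-, 10.1- and 4.12-fold, with IGFBP2 down to 23 and 11 counts. The IGFBP3 counts in HepG2, 21 to 44 per library, are few, and the mesenchymal gene VIM had 9 to 39 counts in the same libraries. At the SK-Hep1 ratio of IGFBP3 to VIM those VIM counts would go with 1.01 to 4.38 counts of IGFBP3, and the source of the IGFBP3 counts in HepG2 was not tested.

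**Figure D3:**
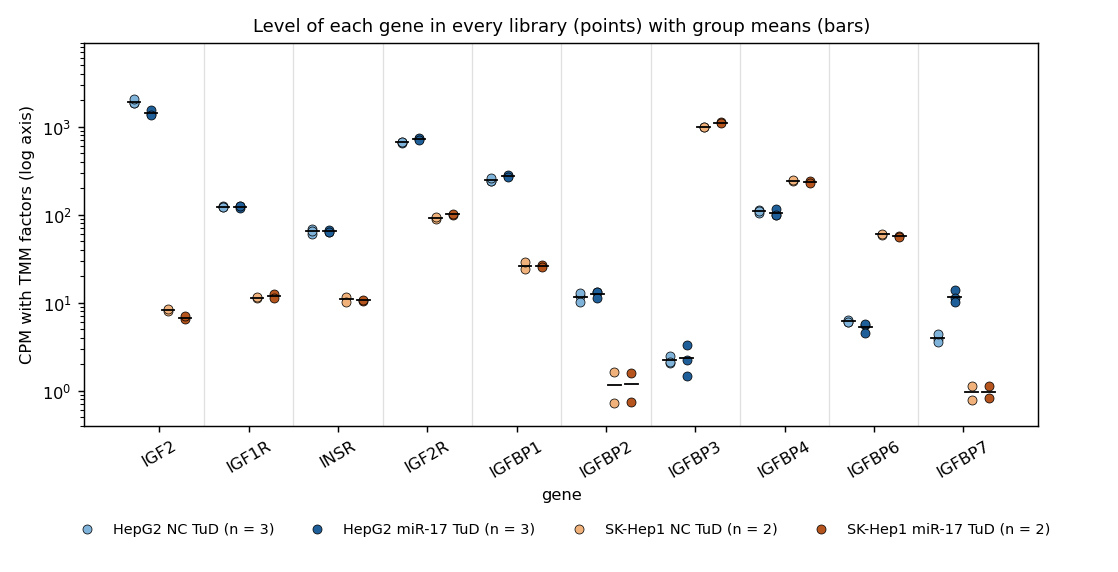
CPM with TMM factors (log axis) of the 10 genes in every library, by group; points are libraries and bars are group means. IGF2 falls from about 1836 to 2054 CPM in HepG2 NC TuD to 8.15 and 8.54 CPM in SK-Hep1 NC TuD, and IGFBP3 lies at 2.04 to 2.47 CPM in the one and 982 and 999 CPM in the other.

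The make-up of the binding protein transcripts differed with the line. Per kilobase of exon, the 6 genes summed to 214 ± 7.82 CPM per kb in HepG2 NC TuD (n = 3) and 549 ± 10.3 in SK-Hep1 NC TuD (n = 2). IGFBP1 made up 69.7 ± 0.974% of the sum in HepG2, followed by IGFBP4 at 23.3%, IGFBP2 at 3.48%, IGFBP6 at 2.15%, IGFBP7 at 1.01% and IGFBP3 at 0.393%. In SK-Hep1 IGFBP3 took that place, with 68.5 ± 0.454%, followed by IGFBP4 at 20.2%, IGFBP6 at 8.10%, IGFBP1 at 2.91%, IGFBP2 at 0.136% and IGFBP7 at 0.0962%. IGFBP4 was second in both lines with a like share, while the leading gene and the last gene were not the same. With the miR-17 decoy the sum was 234 ± 11.0 CPM per kb in HepG2 and 586 ± 10.8 in SK-Hep1. IGFBP7 stood at 2.77 ± 0.436% of the HepG2 sum and IGFBP3 stood at 71.7 ± 0.403% of the SK-Hep1 sum, so the order of the leading pair did not change in either line.

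**Figure D4:**
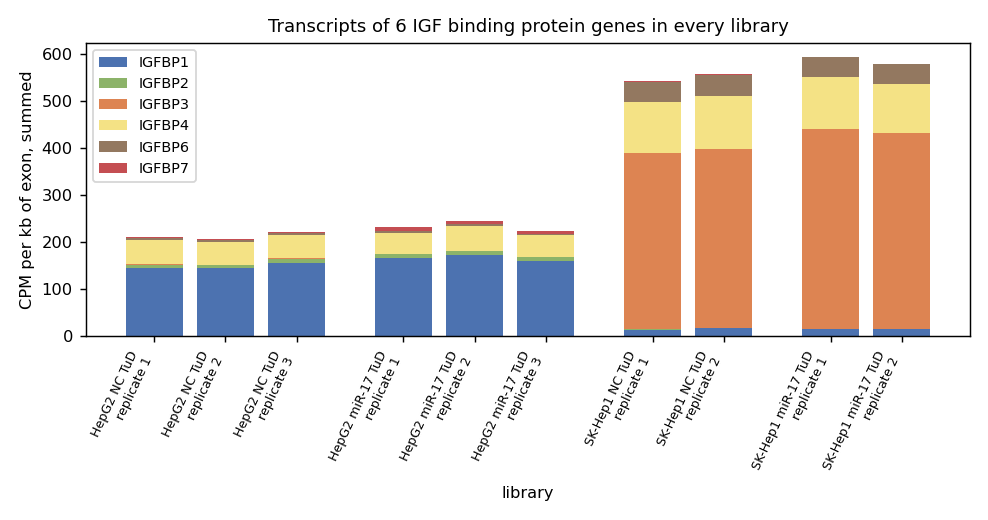
Summed CPM per kb of exon of the 6 binding protein genes in each of the 10 libraries, stacked by gene. IGFBP1 fills most of each HepG2 bar (69.7% with NC TuD) and IGFBP3 most of each SK-Hep1 bar (68.5%), and the bars of the 2 arms of a line look alike.

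Ordered by mean level over the 4 groups, IGF2, IGF1R, IGF2R, INSR, IGFBP1, IGFBP2 and IGFBP7 had both HepG2 groups above both SK-Hep1 groups, and IGFBP3, IGFBP4 and IGFBP6 the reverse, with no overlap between the lines. The share of all tested genes with no such overlap was not computed. Since 86.7% of them were called between the lines, the order sets no gene apart. Neighbouring groups that did overlap were always the 2 arms of a line. In HepG2 these were IGFBP2, IGFBP3, IGFBP4, IGF1R and INSR, and in SK-Hep1 they were IGFBP1, IGFBP2, IGFBP4, IGFBP7, IGF1R and INSR.

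Other genes of the system bear on how these transcripts could be used. A list of 16 further ligands, binding proteins, proteases and receptors was counted, of which 8 passed the filter on low counts. IGF1 and IGFBP5 had at most 1 count in any library, and INS, INSRR and PAPPA2 had none. A count of 0 allows up to 0.199 to 0.233 CPM. IGF2 was thus the only IGF ligand with more than 1 count per library in either line. In HepG2 with the miR-17 decoy 2 of the 8 were called higher and none lower, beside background shares of 10.7% and 8.58%, and 1 of the 2 was lost in several alternatives. STC1 and GHR had no count in any HepG2 library, so they could not be called there. FURIN, a protease that processes the precursors of IGF1R and INSR, rose from 74.7 ± 5.34 to 106.9 ± 6.73 CPM (SD, n = 3 per arm; log2 change 0.52 ± 0.05, edgeR adjusted p = 2.38e-11). IGFALS, the acid-labile subunit that stabilises circulating IGF complexes, rose from 1.29 ± 0.289 to 2.33 ± 0.638 CPM (edgeR adjusted p = 0.01812), and this call was lost with DESeq2, on the log2 matrix and without HepG2 miR-17 TuD replicate 2, NC TuD replicate 2 or NC TuD replicate 3.

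In SK-Hep1 1 of these 8 was called, beside a background share of 0.869%: STC1, an inhibitor of PAPPA, which rose from 34.6 ± 3.005 to 53.7 ± 2.50 CPM (0.63 ± 0.08, edgeR adjusted p = 1.069e-06). That call was lost on the deposited log2 matrix (limma adjusted p = 0.657). HepG2 had no count of STC1 in any library. The FURIN response differed between the lines by -0.47 ± 0.10 (edgeR adjusted p = 0.001728), with 31.8 to 35.1 CPM over the 4 SK-Hep1 libraries. Between the lines, 4 of the 8 were called higher in SK-Hep1 and 4 lower, near the background shares of 43.9% and 42.8%. The 4 higher were STC1, GHR, PAPPA and HTRA1 (1 to 8 counts in HepG2), which passed the filter through SK-Hep1 alone. IGFALS, with at most 1 count per SK-Hep1 library, passed it through HepG2. The line calls of these genes are therefore not read as tests. PAPPA, the protease that releases IGFs from IGFBP4, had 4 to 10 counts in the HepG2 libraries and 1802 to 1926 in those of SK-Hep1. HTRA1, a secreted protease, differed by 3.81 ± 0.26 on the log2 scale. STC2, a second PAPPA inhibitor named here after its values were seen, was lower in SK-Hep1, at 98.8 ± 2.51 CPM against 131 ± 2.70 CPM in HepG2 NC TuD (-0.41 ± 0.05, edgeR adjusted p = 1.493e-10).

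Signalling genes below the receptors moved little with the decoy. Of 31 tested, 4 were called higher and 2 lower in HepG2, near the background shares of 10.7% and 8.58%, with a median log2 change of 0.01. IRS1, the adaptor that links IGF1R and INSR to phosphoinositide 3-kinase, rose from 49.2 ± 0.742 to 61.7 ± 2.36 CPM (0.33 ± 0.06, edgeR adjusted p = 6.696e-06). SHC1, the adaptor toward the MAP kinase branch, fell from 225.7 ± 3.93 to 192 ± 9.07 CPM (-0.23 ± 0.04, edgeR adjusted p = 5.782e-06). Both adaptors therefore moved, in opposite directions, while the changes of IGF1R and INSR did not pass the test. PHLPP2, a phosphatase of AKT, rose by 0.30 ± 0.06, and TSC2, which restrains mTORC1, by 0.22 ± 0.05. In SK-Hep1 none of the 31 was called by edgeR, beside a background share of 0.869%. DESeq2 called none either, and none had an unadjusted p below 0.05 in edgeR. The difference between the lines was called for IRS1 (-0.43 ± 0.08, edgeR adjusted p = 0.0004222) and SHC1 (0.29 ± 0.06, edgeR adjusted p = 0.0006047).

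Between the lines, 13 of the 31 signalling genes were called higher in SK-Hep1 and 14 lower, near the background shares of 43.9% and 42.8%. The second adaptor of these receptors, IRS2, had 1 to 3 counts in HepG2 libraries and 954 to 1178 in SK-Hep1 libraries. SHC1 was higher in SK-Hep1 by 1.24 ± 0.04 and PHLPP1, another AKT phosphatase, was lower by -2.25 ± 0.09. IRS1 and SHC1 had counts in both lines, whereas IRS2 was near 0 in HepG2. IRS2 passed the filter through SK-Hep1 alone, so its line call is not read as a test.

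The IGF2 mRNA-binding proteins IGF2BP1, IGF2BP2 and IGF2BP3, which bind IGF2 and other messages, were not called with the decoy in either line. The background shares were 19.3% in HepG2 and 0.869% in SK-Hep1. In HepG2 edgeR gave 1 of the 3 an unadjusted p below 0.05 and DESeq2 called 0, and 1 was called without HepG2 miR-17 TuD replicate 3. In SK-Hep1 both counts were 0. Between the lines all 3 were called lower in SK-Hep1, beside a background share of 42.8%, IGF2BP1 by -1.90 ± 0.04, IGF2BP3 by -0.42 ± 0.05 and IGF2BP2 by -0.26 ± 0.05. Of 10 tested genes that insulin represses through FOXO factors, 1 was called higher and 1 lower in HepG2, near the background shares of 10.7% and 8.58%. PCK1, the enzyme that commits carbon to glucose synthesis, fell from 3.69 ± 0.237 to 1.248 ± 0.192 CPM (-1.56 ± 0.24, edgeR adjusted p = 8.769e-07), and TXNIP, which limits glucose uptake, rose by 0.21 ± 0.05. IGFBP1, a known member of this insulin-repressed group, rose while PCK1 fell. In SK-Hep1 edgeR called 0 of the 10 (1 at an unadjusted p below 0.05, DESeq2 0), beside a background share of 0.869%. PCK1 and G6PC had no count in any SK-Hep1 library, so they could not be called there. SESN3 and PPARGC1A had at most 2 counts per SK-Hep1 library. Between the lines 3 were called higher and 7 lower in SK-Hep1, beside background shares of 43.9% and 42.8%. Of these, PCK1, G6PC, SESN3 and PPARGC1A passed the filter through HepG2 alone. IRS2 and FBXO32 (2 to 6 counts in HepG2) passed it through SK-Hep1 alone. Their line calls are therefore not read as tests. CITED2, a transcriptional co-regulator, was higher by 2.36 ± 0.06, and TRIB1, a pseudokinase, was lower by -3.70 ± 0.09. PPARGC1A, a coactivator of gluconeogenic genes, had 29.6 ± 1.51 CPM in HepG2 NC TuD and no count in SK-Hep1 NC TuD.

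The genes with the nearest profile over the 10 libraries were found by Euclidean distance between log2 CPM values, each gene centred on its mean, among 11164 genes. For IGFBP7 they were PDE11A, CACNA1H and RTN4RL2, at distances of 0.862, 0.901 and 1.08, and their HepG2 decoy changes were 1.01, 1.05 and 0.78. These changes were smaller than the IGFBP7 change of 1.58, and the distances were larger than for the others. The distances rest in part on the HepG2 values known when IGFBP7 was listed. They also take in its 11 to 16 counts per library in SK-Hep1, so nothing is read from their size. Among all tested genes, the HepG2 change of IGFBP7 had rank 191 in the upward direction. For IGF2 the nearest were RASL10B, SP5 and IL1RN, at 0.559, 0.586 and 0.623. For IGFBP1 they were SMARCA4, SLC20A2 and ARHGEF10L, at 0.258, 0.269 and 0.282, and for IGF2R they were TRIB3, ACY1 and DZIP1, at 0.22, 0.239 and 0.25. The distances take in the difference between the lines as well as that between the arms.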

How the data were processed

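The authors deposited raw counts per gene for each of the 10 libraries and a log2 matrix of all libraries. Per the labels, libraries were made from 150 ng of RNA with a kit that does not record strand, and per the series description they were read as 50-base pairs. Per the submitters' processing notes, STAR, HTSeq 0.5.4p5 and hg19 were used. By contrast, the series text gives Bowtie/TopHat, RSEM and the mouse genome, while the symbols are human. Summary entries (11.6% to 14.1% outside genes, 0.584% to 0.619% ambiguous, 4.47% to 5.04% not unique, 2.43% to 2.87% not aligned) were left out of library sizes. No molecular identifiers are named, so floors cover counting error only.

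The gene counts entered edgeR 4.0.16 (R 4.3.3): filterByExpr by group (13349 genes), TMM, 1 quasi-likelihood fit of all 10 libraries with 4 group means and robust dispersions, and Benjamini-Hochberg adjustment over all genes at 0.05, in two-sided tests. SE is the log2 change over the root of F. CPM uses TMM factors and errors of levels are SD. CPM per kb divides by the union of exons in GENCODE 29 basic. Sites were sought in the longest GENCODE 29 3′UTR, for which 12727 symbols matched directly, 540 through another RefSeq symbol and 82 not at all.

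The genes and lists were chosen with earlier results of these data known. Named are all 10 members, up to 4 called genes per list and comparison with the smallest adjusted p, and the 3 nearest profiles (average log2 CPM of at least 1, prior count 2) of each member called in a decoy comparison. Of the genes this rule names, 1 is not reported here. Alternatives were DESeq2 1.42.0, other scalings, no filter, separate lines, a replicate block, limma 3.58.1 on the deposited log2 matrix, and each library left out. Protein sequences were not used here.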

Additional observations from a re-analysis of the deposited data

Results flagged for a closer look

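The change of IGFBP7 with the decoy had a different size in the 2 lines. The SK-Hep1 change minus the HepG2 change was -1.54 ± 0.44 on the log2 scale (SE), which edgeR called. It is a description only, since the HepG2 values behind it are those for which IGFBP7 was listed. The call was lost with a replicate block and on leaving out HepG2 miR-17 TuD replicate 1, HepG2 NC TuD replicate 1 or any single SK-Hep1 library. All 3 HepG2 miR-17 TuD libraries lay above all 3 HepG2 NC TuD libraries, while the SK-Hep1 arms overlapped at 11 to 16 counts per library.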

How the results depend on the processing

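Of 10 genes, 4 were called in HepG2, with 3 to 5 over all alternatives. In SK-Hep1 1 was called in place of 0, IGFBP3, with DESeq2-type scaling, with no low-count filter, with each line on its own and with DESeq2; the cause was not tested. With a replicate block the 10 genes had 0 calls in the difference of responses in place of 1, and leaving out single libraries gave 0 to 1. Sites numbered 4 with 7mer-A1 counted. Replicate numbers did not pair the HepG2 libraries (same-number correlations of deviations from arm means 0.09, -0.50 and -0.46). HepG2 miR-17 TuD replicate 2 with NC TuD replicate 3 gave 0.45, and replicate 3 with NC TuD replicate 2 gave 0.55. Other unlike-number pairs ran from -0.17 to 0.12, and the source of these values was not tested. In SK-Hep1 the value of -0.15 cannot show pairing, since with 2 libraries per arm the deviations mirror each other. The block moved calls over all genes from 2571 to 1872 in HepG2, from 116 to 58 in SK-Hep1 and from 500 to 227 in the difference. A crossed block in SK-Hep1, added after seeing the data, gave 62.
Other counts over all genes that moved by over 1.5 times were DESeq2's 1705 in HepG2 and 330 in the difference, 274 in SK-Hep1 on its own, and, with libraries left out, 49 to 70 in SK-Hep1 (each of the 4) and 266 to 329 in the difference (HepG2 NC TuD replicate 1 and each SK-Hep1 library). Total-count scaling split the HepG2 calls into 1822 higher and 764 lower, in place of 1425 and 1146, and the log2 matrix split those of SK-Hep1 into 60 and 76, in place of 89 and 27.
Signs changed for values near 0. On the log2 matrix INSR in HepG2 was at -0.000015. The IGFBP4 difference of responses was 0.005324 with DESeq2-type scaling, 0.00241 with the replicate block, 0.005952 with DESeq2 and 0.007873 on the log2 matrix, and that of IGF2R was -0.004863 with total counts. With libraries left out in turn, HepG2 changes ran from -0.01281 to 0.0223 (IGF1R), -0.04896 to 0.04139 (INSR) and -0.25 to 0.31 (IGFBP3). In SK-Hep1 they ran from -0.14 to 0.04929 (INSR), -0.15 to 0.13 (IGFBP1), -0.63 to 0.72 (IGFBP2), -0.21 to 0.31 (IGFBP7) and -0.00159 to 0.15 (IGF1R). Differences ran from -0.16 to 0.41 (IGFBP3), -0.04396 to 0.07706 (IGFBP4), -0.14 to 0.04751 (INSR), -0.75 to 0.60 (IGFBP2), -0.005961 to 0.0581 (IGF2R) and -0.004571 to 0.14 (IGF1R). Depth limits IGFBP2 and IGFBP7 in SK-Hep1, with 10 to 23 counts per library.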
